A study of Mus musculus with 12 samples.

Results

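Ribosome biogenesis and nucleolar genes were followed as a group of 40 genes, all present among the 12591 genes of the table. They were chosen by symbol with no threshold on their values, but with earlier results of these data known. The cells were immortalized embryonic fibroblasts of the strain C57 PER2::LUC, in which the clock protein PER2 carries a luciferase reporter. They were grown to confluence and kept for 24 h in new medium, with 3 dishes in each of 4 groups, CTL, DZ, adenine, and SAM. CTL cells received only 3.3 mM HCl, the solvent of adenine, and the same HCl was present in every other group. The treated dishes received in addition 10 μM DZ (deazaneplanocin A, an inhibitor of the enzyme AHCY that clears S-adenosylhomocysteine), 1 mM adenine, or 1 mM SAM (S-adenosylmethionine, the methyl donor of the cell). Since all dishes came from a single cell line, the p-values measure the spread between dishes, and in RNA from whole dishes fewer cells of a kind and less RNA per cell cannot be told apart.

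Ribosomes are assembled around the nucleolus, where RNA polymerase I copies the ribosomal DNA into a long precursor. The precursor is modified by small nucleolar ribonucleoproteins (snoRNPs), of which the box C/D class methylates ribose and the box H/ACA class forms pseudouridine, and it is then folded and cut into the RNAs of the small and the large subunit with the help of many assembly factors. MYC is the transcription factor best known for driving these genes together in growing cells. Ribose methylation of ribosomal RNA by the box C/D snoRNPs uses SAM as its methyl donor.

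Most of the 40 genes were higher than CTL under DZ and lower than CTL under adenine and SAM. Under DZ 30 of them rose, Npm1 fell, and 9 were not called, at an FDR under 0.01 in limma over all genes. Thus 75.0% of the group rose, while 22.6% of the 12591 genes were called higher under DZ and 23.4% lower. Under adenine 27 fell, only Ubtf rose, and 12 were not called, with 31.0% of all genes called lower and 30.6% higher. Under SAM 30 fell, only Nolc1 rose, and 9 were not called, with 35.7% of all genes called lower and 33.7% higher. The median log2 fold change of the 40 genes was 0.28 under DZ, -0.26 under adenine, and -0.44 under SAM, against medians of -0.0057, -0.0030, and -0.015 over all genes tested. The changes were mostly small, since a log2 fold change of 0.5 or more in either direction was reached by 6 of the called genes under DZ, 5 under adenine, and 18 under SAM. These were 5 higher and 1 lower under DZ, and all lower under adenine and SAM. At this cut 635 of all 12591 genes were called higher and 901 lower under DZ. The counts were 1797 and 1589 under adenine, and 2192 and 2233 under SAM.

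The dishes of a group were close to each other. In 32 of the 40 genes the 3 DZ dishes all lay above the 3 CTL dishes, an arrangement found upwards in 31.8% of all genes. All adenine dishes lay below all CTL dishes in 30 genes (37.7% of all genes), and all SAM dishes did so in 33 (40% of all genes). Of the 40 genes, 19 rose under DZ and fell under both adenine and SAM, a combination called in 3.9% of all genes. They were Myc, Polr1a, Fbl, Nop56, Nop58, Dkc1, Nhp2, Gnl3, Ddx21, Mybbp1a, Utp4, Utp20, Heatr1, Wdr43, Rrp9, Rrp12, Nop2, Noc2l, and Noc3l. A further 7 fell under adenine and SAM without a call under DZ (Polr1c, Rrn3, Ncl, Utp18, Nop14, Pes1, and Wdr12), as did 11.2% of all genes, and 6 rose under DZ with no call under the other treatments (Polr1b, Gar1, Utp15, Bysl, Nop16, and Rrp1b), as did 3.55% of all genes. Nol6, Bop1, and Mrto4 rose under DZ and fell under SAM, with no call under adenine, as did 1.84% of all genes. Npm1 alone fell in all 3 treatments, as did 11% of all genes, and Nop10 and Noc4l were called in none of them, as were 15.2% of all genes. These sets moved with the scaling. Plain read totals added Noc4l (0.17) and Utp18 (0.16) as higher under DZ, Gar1 (0.15), Utp15 (0.13), and Nolc1 (0.15) as higher under adenine, and Nop10 (0.28), Rrp1b (0.15), and Ubtf (0.20) as higher under SAM, and lost Polr1a under adenine and Bop1, Rrn3, and Utp18 under SAM. Median centring added Bop1, Mrto4, Noc4l, Nop16, and Polr1b as lower under adenine (-0.17 to -0.16) and Bysl, Noc4l, Nop16, and Polr1b as lower under SAM (-0.22 to -0.18), and lost Fbl and Gnl3 under DZ and Nolc1 under SAM. Quantile normalization added Ncl as higher under DZ (0.14), Nolc1 as higher (0.14) and Nop16 as lower (-0.18) under adenine, and Ubtf as higher (0.12) and Bysl, Noc4l, Nop16, and Polr1b as lower (-0.21 to -0.16) under SAM, and lost Fbl under DZ. All comparisons with CTL share its 3 libraries.

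**Figure D1:**
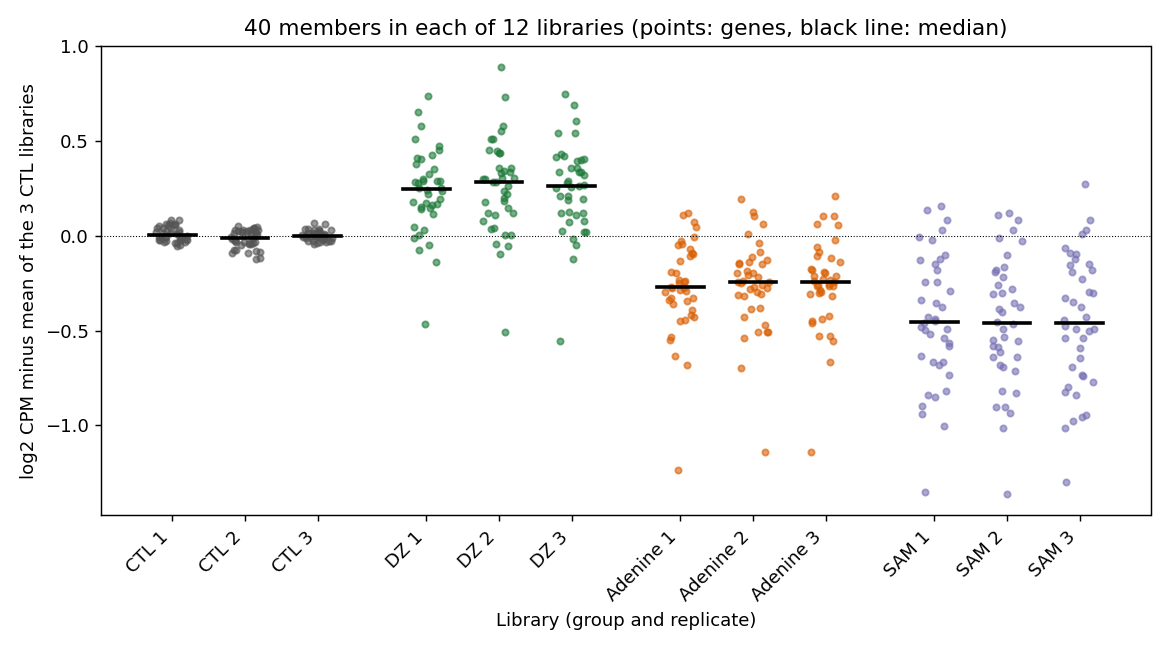
Each point is 1 of the 40 genes in 1 of the 12 libraries, given as its log2 CPM minus the mean of the 3 CTL libraries (y axis), with the libraries along the x axis and a black line at the median. The medians of the 3 DZ libraries all lie above 0, and those of the 3 adenine and the 3 SAM libraries all lie below 0, with SAM the lowest.

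Values are given as log2 CPM, the base-2 logarithm of a gene's read count scaled to the authors' normalized library size. Reads on the listed genes numbered between 45649534 and 56789090 per library, and no gene had fewer than 46 reads in any library. The scaling between libraries bears on the size of these changes. With plain read totals in place of the authors' scaling, the median of all genes moved from -0.015 to 0.11 under SAM, and that of the 40 genes from -0.44 to -0.32. No called gene of the group changed direction under this or any other alternative run. With plain read totals the calls were 4 higher and 26 lower under adenine, and 4 higher and 27 lower under SAM. Among all 12591 genes that scaling called 4572 higher and 3264 lower under adenine, and 5462 higher and 3462 lower under SAM. Of 10 fibroblast markers 8 were in the table, with Dcn and Lum not among its genes, and their summed CPM was between 21800 and 22300 in CTL, between 27700 and 28300 in DZ, between 24200 and 26500 in adenine, and between 15900 and 17200 in SAM. None of the 7 epithelial or 5 endothelial markers was in the table, and of the 8 leukocyte markers only Cd68 was, at 3.03 to 4.0 CPM in CTL, 2.73 to 3.78 in DZ, 10.8 to 12.3 in adenine, and 15.6 to 17.7 in SAM. Of 6 muscle and neural markers, Tubb3 alone was in the table, at 6.74 to 7.81 CPM in CTL, 6.56 to 6.91 in DZ, 13.6 to 14.8 in adenine, and 4.69 to 5.42 in SAM. The part of these shifts in the results was not tested.

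Promoters were examined for letters that the choice of genes did not use. RefSeq windows of 250 bases before to 50 after a transcription start (build GRCm38.p6 in the table) were matched by symbol for 34 of the 40 genes, that is for all but Bop1, Fbl, Myc, Nol6, Npm1, and Rrp12, in 43 windows. Each window had 1 exact match in GRCm39, whose coordinates are used here. CACGTG, the E-box letters that MYC with MAX and also the clock factors CLOCK and BMAL1 are known to bind, stood in 8 of the 43 windows (18.6%), against 7.15% of all 32851 windows in the table and 10.1% of the 11287 windows of genes tested here. GGGCGG was in 72.1% of the windows (35.7% of all, 64.4% of tested), CCGGAAG in 27.9% (8.86% of all, 18.4% of tested), and CCAAT in 25.6% (37.4% of all, 38.2% of tested). Both strands were searched, and none of these motifs contains another. The 8 genes with CACGTG were Mybbp1a, Nop2, Utp20, Utp4, Wdr43, Pes1, Rrn3, and Utp18. All 8 fell under both adenine and SAM, as did 15 of the 26 matched members without it, where 26.0% of all genes did. Of the tested genes in the promoter table the share was 30.2% of the 1065 with CACGTG and 22.8% of the 7756 without. The calls of Rrn3 and Utp18 under SAM were lost with plain read totals (-0.06 and -0.06). Of the 8, 5 rose under DZ. A match is a run of letters in the reference, and no binding was measured.

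The E-box lay within 120 bases before or the first 30 bases from the start in 6 of them, and these stretches are shown for a view of the letters around it in genes called lower under both adenine and SAM. They are written 5′ to 3′ on the strand of the gene, with CACGTG in capitals. Nop2 (chr6:125108726-125108875, plus strand), Utp4 (chr8:107620152-107620301, plus strand), and Wdr43 (chr17:71923090-71923239, plus strand) were also called higher under DZ (0.43, 0.27, and 0.30). Pes1 (chr11:3913855-3914004, plus strand), Rrn3 (chr16:13598443-13598592, plus strand), and Utp18 (chr11:93776563-93776712, minus strand) were not called under DZ (0.01, -0.07, and 0.13), although Utp18 was with plain read totals (0.16). Whether the 6 genes differed from each other was not tested. The starts are those of RefSeq. The stretches of Utp4, Wdr43, Rrn3, and Utp18 lie wholly within the spans of these genes in GENCODE vM39. Counted from the start as 0, the first base of the E-box was at -60 in Nop2, 15 in Utp4, 17 in Wdr43, 2 in Pes1, -48 in Rrn3, and -20 in Utp18.
Nop2: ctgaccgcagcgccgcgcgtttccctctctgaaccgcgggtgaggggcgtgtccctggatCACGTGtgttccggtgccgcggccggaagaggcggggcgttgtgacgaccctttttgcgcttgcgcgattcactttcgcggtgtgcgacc
Utp4: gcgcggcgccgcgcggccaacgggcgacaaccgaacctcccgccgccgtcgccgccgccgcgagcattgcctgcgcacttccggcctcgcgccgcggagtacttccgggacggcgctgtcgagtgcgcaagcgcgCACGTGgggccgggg
Wdr43: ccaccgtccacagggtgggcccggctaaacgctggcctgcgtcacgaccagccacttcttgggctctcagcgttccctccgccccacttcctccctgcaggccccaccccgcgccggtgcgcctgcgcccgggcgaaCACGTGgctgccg
Pes1: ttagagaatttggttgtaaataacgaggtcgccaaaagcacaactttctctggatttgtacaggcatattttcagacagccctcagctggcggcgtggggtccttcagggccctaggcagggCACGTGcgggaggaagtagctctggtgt
Rrn3: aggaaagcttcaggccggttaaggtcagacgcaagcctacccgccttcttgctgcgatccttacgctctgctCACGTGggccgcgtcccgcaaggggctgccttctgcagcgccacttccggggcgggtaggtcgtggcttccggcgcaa
Utp18: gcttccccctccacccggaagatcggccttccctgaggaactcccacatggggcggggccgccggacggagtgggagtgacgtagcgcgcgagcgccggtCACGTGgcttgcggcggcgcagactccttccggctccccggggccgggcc

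Myc (chromosome 15, 61857227 to 61862223, the span of the gene in GENCODE vM39 on GRCm39, as for every gene below), the transcription factor of the group, followed the pattern of the nucleolar genes. The 3 dishes read 8.13, 8.15, and 8.12 log2 CPM in CTL, 8.38, 8.44, and 8.47 in DZ, 7.81, 7.82, and 7.83 in adenine, and 7.40, 7.44, and 7.49 in SAM. No group overlapped another, with DZ highest and SAM lowest. Myc rose under DZ by 22.8% (log2 fold change 0.30, standard error 0.03, adjusted p = 8.03e-07 in limma with Benjamini-Hochberg adjustment over all genes, as for every adjusted p below), whereas it fell by 19.5% with adenine (-0.31, adjusted p = 1.57e-07) and fell by 38% with SAM (-0.69, adjusted p = 8.04e-12). Without Myc the median of the other 39 genes was 0.27 under DZ, -0.26 under adenine, and -0.44 under SAM.

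Of the 5 genes of RNA polymerase I transcription, 3 rose under DZ, 3 fell under adenine (and Ubtf rose), and 3 fell under SAM. Polr1a (chromosome 6, 71886021 to 71961919), the largest subunit of the polymerase, was at 7.10, 7.17, and 7.13 log2 CPM in CTL, 7.42, 7.44, and 7.39 in DZ, 6.94, 6.92, and 6.95 in adenine, and 6.55, 6.45, and 6.29 in SAM. The SAM dishes spread more than those of the other groups but all lay below them, and the log2 fold change was 0.29 under DZ, -0.20 under adenine, and -0.70 under SAM (adjusted p = 0.000125, 0.00174, and 2.07e-09 in limma). The call under adenine was lost with plain read totals (-0.14). Polr1c (chromosome 17, 46554843 to 46559126), a subunit shared with RNA polymerase III, was at 6.36, 6.27, and 6.27 log2 CPM in CTL and 6.16, 6.25, and 6.18 in DZ, which was not called (log2 fold change -0.10, adjusted p = 0.038 in limma). It fell to 5.62, 5.60, and 5.63 in adenine and 5.63, 5.68, and 5.76 in SAM, with log2 fold changes of -0.68 and -0.61. Polr1b, the partner of Polr1a at the active site, rose under DZ (log2 fold change 0.41) and was at -0.12 under adenine and -0.16 under SAM, neither called, although the fall under SAM was called without SAM replicate 1 (-0.22).

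The pair of factors that bring the polymerase to ribosomal DNA changed by small amounts. Ubtf (chromosome 11, 102195386 to 102210568), the upstream binding factor that occupies ribosomal DNA, was at 7.11, 7.16, and 7.12 log2 CPM in CTL, 7.30, 7.25, and 7.26 in DZ, 7.25, 7.33, and 7.35 in adenine, and 7.27, 7.22, and 7.14 in SAM. Its changes were small and pointed upwards, with log2 fold changes of 0.14 under DZ (adjusted p = 0.00388 in limma), 0.18 with adenine (adjusted p = 0.000389), and 0.08 with SAM, where it was not called (adjusted p = 0.0602) and the dishes overlapped those of CTL. The call under DZ was lost in 3 of the 6 fits that each left out 1 dish, namely without CTL replicate 1 (0.13), CTL replicate 3 (0.13), or DZ replicate 1 (0.12), and without SAM replicate 3 Ubtf was called higher under SAM (0.11). Rrn3 (chromosome 16, 13598376 to 13635974), the initiation factor that couples the polymerase to the promoter, was at 6.06, 6.04, and 6.04 log2 CPM in CTL, 5.97, 5.95, and 6.0 in DZ, 5.80, 5.90, and 5.83 in adenine, and 5.86, 5.86, and 5.87 in SAM. It fell by 13.1% under adenine and fell by 11.8% under SAM, the latter call being lost with plain read totals (-0.06), and was not called under DZ (-0.07, adjusted p = 0.0797 in limma).

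All 3 genes of the group that belong to the box C/D snoRNP core rose under DZ and fell under adenine and SAM. Fbl (chromosome 7, 27868353 to 27878701), fibrillarin, the methyltransferase that places ribose methyl groups on ribosomal RNA with SAM as donor, was at 6.71, 6.70, and 6.66 log2 CPM in CTL, 6.87, 6.77, and 6.80 in DZ, 6.25, 6.18, and 6.25 in adenine, and 6.19, 6.10, and 6.20 in SAM. The adenine and SAM dishes overlapped each other and lay below all CTL dishes. Fbl fell by 27.5% under adenine and fell by 30.5% under SAM (adjusted p = 1.53e-08 and 2.35e-09 in limma). Its rise of 8.8% under DZ was at the edge of the threshold (adjusted p = 0.00981 in limma) and was lost in 5 of the 6 fits that each left out 1 dish, in which the log2 fold change was between 0.0952 (without DZ replicate 1) and 0.13 (without CTL replicate 1), while it was 0.14 and still called without DZ replicate 2. Nop58 (chromosome 1, 59724106 to 59758203), a scaffold protein of the same particle, was at 7.01, 7.04, and 7.04 log2 CPM in CTL, 7.28, 7.31, and 7.31 in DZ, 6.83, 6.89, and 6.85 in adenine, and 6.54, 6.50, and 6.54 in SAM. No group overlapped another, and the log2 fold changes were 0.27, -0.17, and -0.50. Nop56, the other scaffold, had 0.17 under DZ, -0.27 under adenine, and -0.34 under SAM, all called.

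The 4 proteins of the box H/ACA snoRNP core were less uniform. Dkc1 (chromosome X, 74139460 to 74155456), dyskerin, the pseudouridine synthase, was at 6.65, 6.70, and 6.67 log2 CPM in CTL, 7.0, 7.01, and 7.01 in DZ, 6.43, 6.48, and 6.46 in adenine, and 6.24, 6.27, and 6.20 in SAM, with no overlap between any groups, and had log2 fold changes of 0.33, -0.21, and -0.44 (adjusted p = 1.8e-07, 8.77e-06, and 1.57e-09 in limma). Nhp2 had the same directions (0.18, -0.30, and -0.38, all called), but its call under DZ was lost without CTL replicate 2, DZ replicate 2, or DZ replicate 3, with log2 fold changes from 0.14 to 0.21 over the fits that left out 1 dish. Gar1 rose under DZ by 45.9% and was not called under adenine (0.09) or SAM (-0.07), although plain read totals called it higher under adenine (0.15). Nop10, the smallest protein of the particle, averaged 5.31 ± 0.062 in CTL (log2 CPM, SD, n = 3), 5.29 ± 0.038 in DZ, 5.22 ± 0.063 in adenine, and 5.47 ± 0.1 in SAM, and was called in none of these comparisons, although it was called higher under SAM with plain read totals (0.28) and without CTL replicate 1 (0.19) or SAM replicate 1 (0.19).

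Of the 6 multifunctional nucleolar proteins, 4 rose and 1 fell under DZ, 5 fell under adenine, and 5 fell and 1 rose under SAM, and Npm1 had the largest fall of the 40 genes in each treatment. Npm1 (chromosome 11, 33100281 to 33113267), nucleophosmin, an abundant histone and ribosome chaperone, was at 9.95, 10.04, and 10.00 log2 CPM in CTL, 9.53, 9.48, and 9.44 in DZ, 8.76, 8.86, and 8.85 in adenine, and 8.64, 8.63, and 8.69 in SAM. No group overlapped another, and here DZ also lay below CTL. Npm1 fell by 29.8% under DZ, fell by 55.6% under adenine, and fell by 60.4% under SAM (log2 fold changes -0.51, -1.17, and -1.34, standard error 0.035, adjusted p = 1.42e-08, 3.36e-13, and 2.98e-14 in limma). Npm1 was also the gene of the group with the highest level per kilobase of transcript in CTL (9.69 log2 CPM per kb), followed by Ncl (7.85) and Myc (6.95). Ncl (chromosome 1, 86272441 to 86287208), nucleolin, which binds ribosomal DNA and its precursor RNA, was at 9.54, 9.63, and 9.57 log2 CPM in CTL, 9.62, 9.62, and 9.60 in DZ, 8.95, 9.04, and 9.05 in adenine, and 8.69, 8.68, and 8.63 in SAM. DZ and CTL overlapped (0.03, adjusted p = 0.393 in limma), whereas Ncl fell by 32.5% under adenine and fell by 47.1% under SAM.

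Gnl3 (chromosome 14, 30734389 to 30741364), nucleostemin, a nucleolar GTPase of proliferating cells, was at 7.73, 7.75, and 7.74 log2 CPM in CTL, 7.86, 7.85, and 7.82 in DZ, 7.19, 7.23, and 7.21 in adenine, and 6.90, 6.92, and 7.0 in SAM. It fell by 30.7% under adenine and fell by 42.5% under SAM. Its rise of 7.31% under DZ was small (log2 fold change 0.10, adjusted p = 0.008 in limma), and was lost in each of the 6 fits that left out 1 dish (between 0.0941 without DZ replicate 1 and 0.11 without DZ replicate 3) and with the replicate number as a block. Ddx21 (chromosome 10, 62415574 to 62438099), an RNA helicase of RNA polymerase I transcription and rRNA processing, was at 8.29, 8.34, and 8.34 log2 CPM in CTL, 8.50, 8.54, and 8.53 in DZ, 7.98, 8.06, and 8.06 in adenine, and 7.38, 7.39, and 7.34 in SAM. It rose by 15.2% under DZ and fell by 18% under adenine and fell by 48.3% under SAM, with no overlap between any groups. Mybbp1a had log2 fold changes of 0.41, -0.28, and -0.48, all called, and across the 12 libraries its values followed the median of the group most closely (Pearson r = 0.997, a description over libraries that share their group). Nolc1 (chromosome 19, 46064234 to 46073983), which shuttles with snoRNPs, was at 7.41, 7.45, and 7.42 log2 CPM in CTL, 7.73, 7.71, and 7.76 in DZ, 7.5, 7.55, and 7.49 in adenine, and 7.58, 7.55, and 7.51 in SAM. It rose by 23.8% under DZ and by 8.67% under SAM (adjusted p = 0.00175 in limma), the latter call being lost without SAM replicate 1 (0.10) or with median centring (0.08). Under adenine it was not called (0.09), although it was with plain read totals (0.15) and quantile normalization (0.14).

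**Figure D2:**
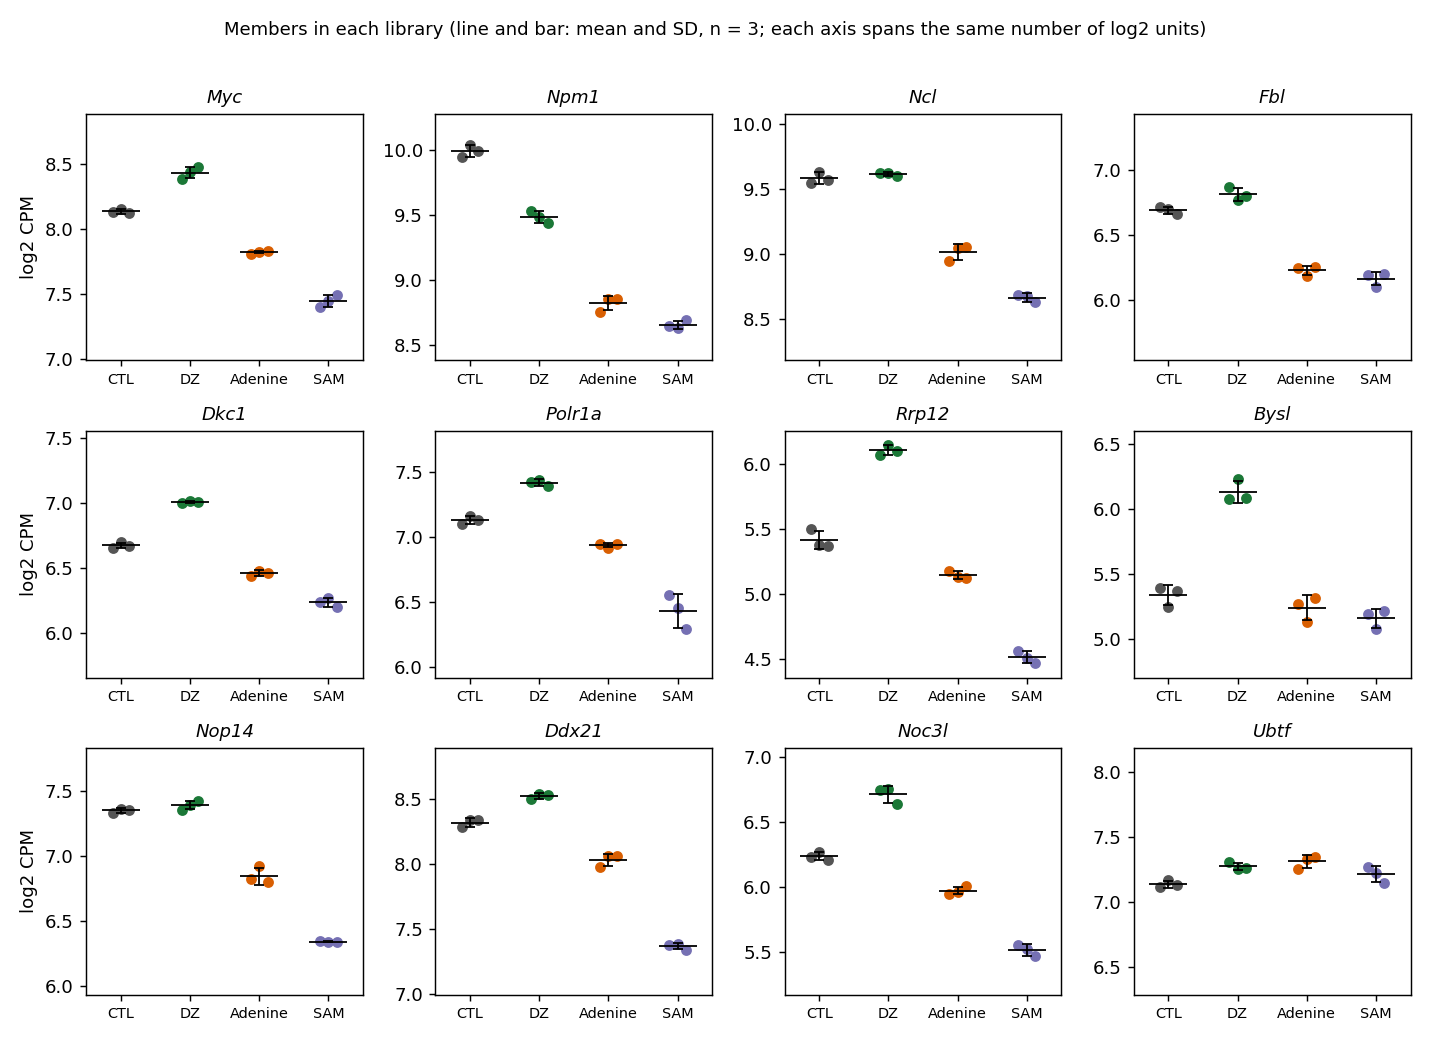
log2 CPM (y axis) of 12 of the genes in each library (points) of the 4 groups (x axis), with the mean as a line and the SD as bars (n = 3), each panel spanning the same number of log2 units. DZ points lie highest in most panels, Npm1 is highest in CTL, and Nop14 and Ncl have DZ near CTL and SAM lowest.

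Of 12 small subunit processing factors, 9 rose under DZ, 8 fell under adenine, and 9 fell under SAM, and none moved the other way. Rrp12 (chromosome 19, 41847867 to 41884649), which takes part in the export of small subunit precursors, was at 5.49, 5.38, and 5.37 log2 CPM in CTL, 6.07, 6.14, and 6.10 in DZ, 5.18, 5.13, and 5.12 in adenine, and 4.56, 4.51, and 4.46 in SAM. The 4 groups did not overlap, and Rrp12 rose by 61.5% under DZ and fell by 17% under adenine and fell by 46.5% under SAM (adjusted p = 6.83e-09, 6.18e-05, and 4.02e-11 in limma). Bysl (chromosome 17, 47910256 to 47922469), a late factor of small subunit maturation, had the largest rise of the group under DZ, 73.1% (log2 fold change 0.79, standard error 0.06, adjusted p = 3.41e-08 in limma). Its dishes read 5.39, 5.25, and 5.37 log2 CPM in CTL, 6.07, 6.23, and 6.08 in DZ, 5.26, 5.13, and 5.32 in adenine, and 5.19, 5.08, and 5.21 in SAM. Adenine overlapped CTL and SAM lay just below it, and neither was called (-0.10 and -0.18, adjusted p = 0.155 and 0.0137), although the fall under SAM was called without CTL replicate 2 (-0.22) or SAM replicate 3 (-0.20).

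Nop14 (chromosome 5, 34795876 to 34817506), a core factor of the small subunit processome (the particle that cuts the precursor on the small subunit side), was at 7.33, 7.37, and 7.36 log2 CPM in CTL, 7.36, 7.39, and 7.43 in DZ, 6.82, 6.92, and 6.80 in adenine, and 6.35, 6.34, and 6.34 in SAM. DZ was not told apart from CTL (0.04, adjusted p = 0.302 in limma), and Nop14 fell by 29.5% under adenine and fell by 50.3% under SAM, the largest fall under SAM after Npm1. Its binding partner Noc4l was called in no comparison with CTL (0.14, -0.10, and -0.14), although leaving out CTL replicate 3 called it under DZ (0.18), and leaving out CTL replicate 2 called it under adenine (-0.16) and SAM (-0.19). Among the factors that join the precursor first, Utp4, Heatr1, and Wdr43 rose under DZ (0.27, 0.38, and 0.30) and fell under adenine (-0.40, -0.29, and -0.23) and SAM (-0.57, -0.70, and -0.55). Utp15 of the same subcomplex rose under DZ (0.35) and was at 0.07 and -0.04 under adenine and SAM, not called, although plain read totals called it higher under adenine (0.13). Utp18 (chromosome 11, 93749879 to 93776978), which belongs to another subcomplex, was at 6.02, 5.98, and 6.05 log2 CPM in CTL, 6.18, 6.14, and 6.14 in DZ, 5.74, 5.70, and 5.70 in adenine, and 5.89, 5.74, and 5.87 in SAM. It fell by 19% under adenine and fell by 12.1% under SAM, the latter call being lost with plain read totals (-0.06), and its DZ dishes lay above CTL without a call (adjusted p = 0.011 in limma). Utp20 and Rrp9, the latter a protein of the U3 snoRNP, moved like Utp4 with log2 fold changes under SAM of -0.66 and -0.79, and Nol6 was called under DZ (0.28) and SAM (-0.29) but not under adenine (-0.08).

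Of 9 large subunit processing factors, 7 rose under DZ, 5 fell under adenine, and 7 fell under SAM, and none moved the other way. Noc3l (chromosome 19, 38776566 to 38807686), an early factor of large subunit assembly, was at 6.23, 6.27, and 6.21 log2 CPM in CTL, 6.75, 6.75, and 6.64 in DZ, 5.95, 5.96, and 6.0 in adenine, and 5.56, 5.53, and 5.46 in SAM. No group overlapped another, and the log2 fold changes were 0.48, -0.26, and -0.72 (adjusted p = 7.01e-08, 1.59e-05, and 9e-11 in limma). Mrto4 (chromosome 4, 139074746 to 139079922), which occupies the place of the stalk on the precursor of the large subunit, was at 5.67, 5.58, and 5.72 log2 CPM in CTL, 6.11, 6.24, and 6.27 in DZ, 5.57, 5.58, and 5.48 in adenine, and 5.23, 5.17, and 5.31 in SAM. It rose by 46.1% under DZ and fell by 25.4% under SAM, and all adenine dishes lay below CTL without a call (adjusted p = 0.0534 in limma).

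Pes1, Bop1, and Wdr12 form a stable complex needed for the large subunit, and their calls under DZ were not the same. Pes1 and Wdr12 were not told apart from CTL under DZ (0.01 and 0.00), and fell under adenine (-0.42 and -0.47) and SAM (-0.45 and -0.62). Bop1 rose under DZ (0.21), was at -0.12 under adenine without a call (-0.16 and called without CTL replicate 2), and fell under SAM (-0.25), a call lost with plain read totals (-0.13). Whether Bop1 differed from its partners was not tested. Nop2, a cytosine methyltransferase of large subunit rRNA, and the partners Noc2l and Noc3l rose under DZ and fell under adenine and SAM, with log2 fold changes of 0.43, -0.26, and -0.31 for Nop2 and 0.30, -0.25, and -0.38 for Noc2l. Nop16 and Rrp1b were called under DZ alone (0.52 and 0.22), although Rrp1b was called higher under SAM with plain read totals (0.15) and Nop16 lower under SAM without SAM replicate 3 (-0.20).

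**Figure D3:**
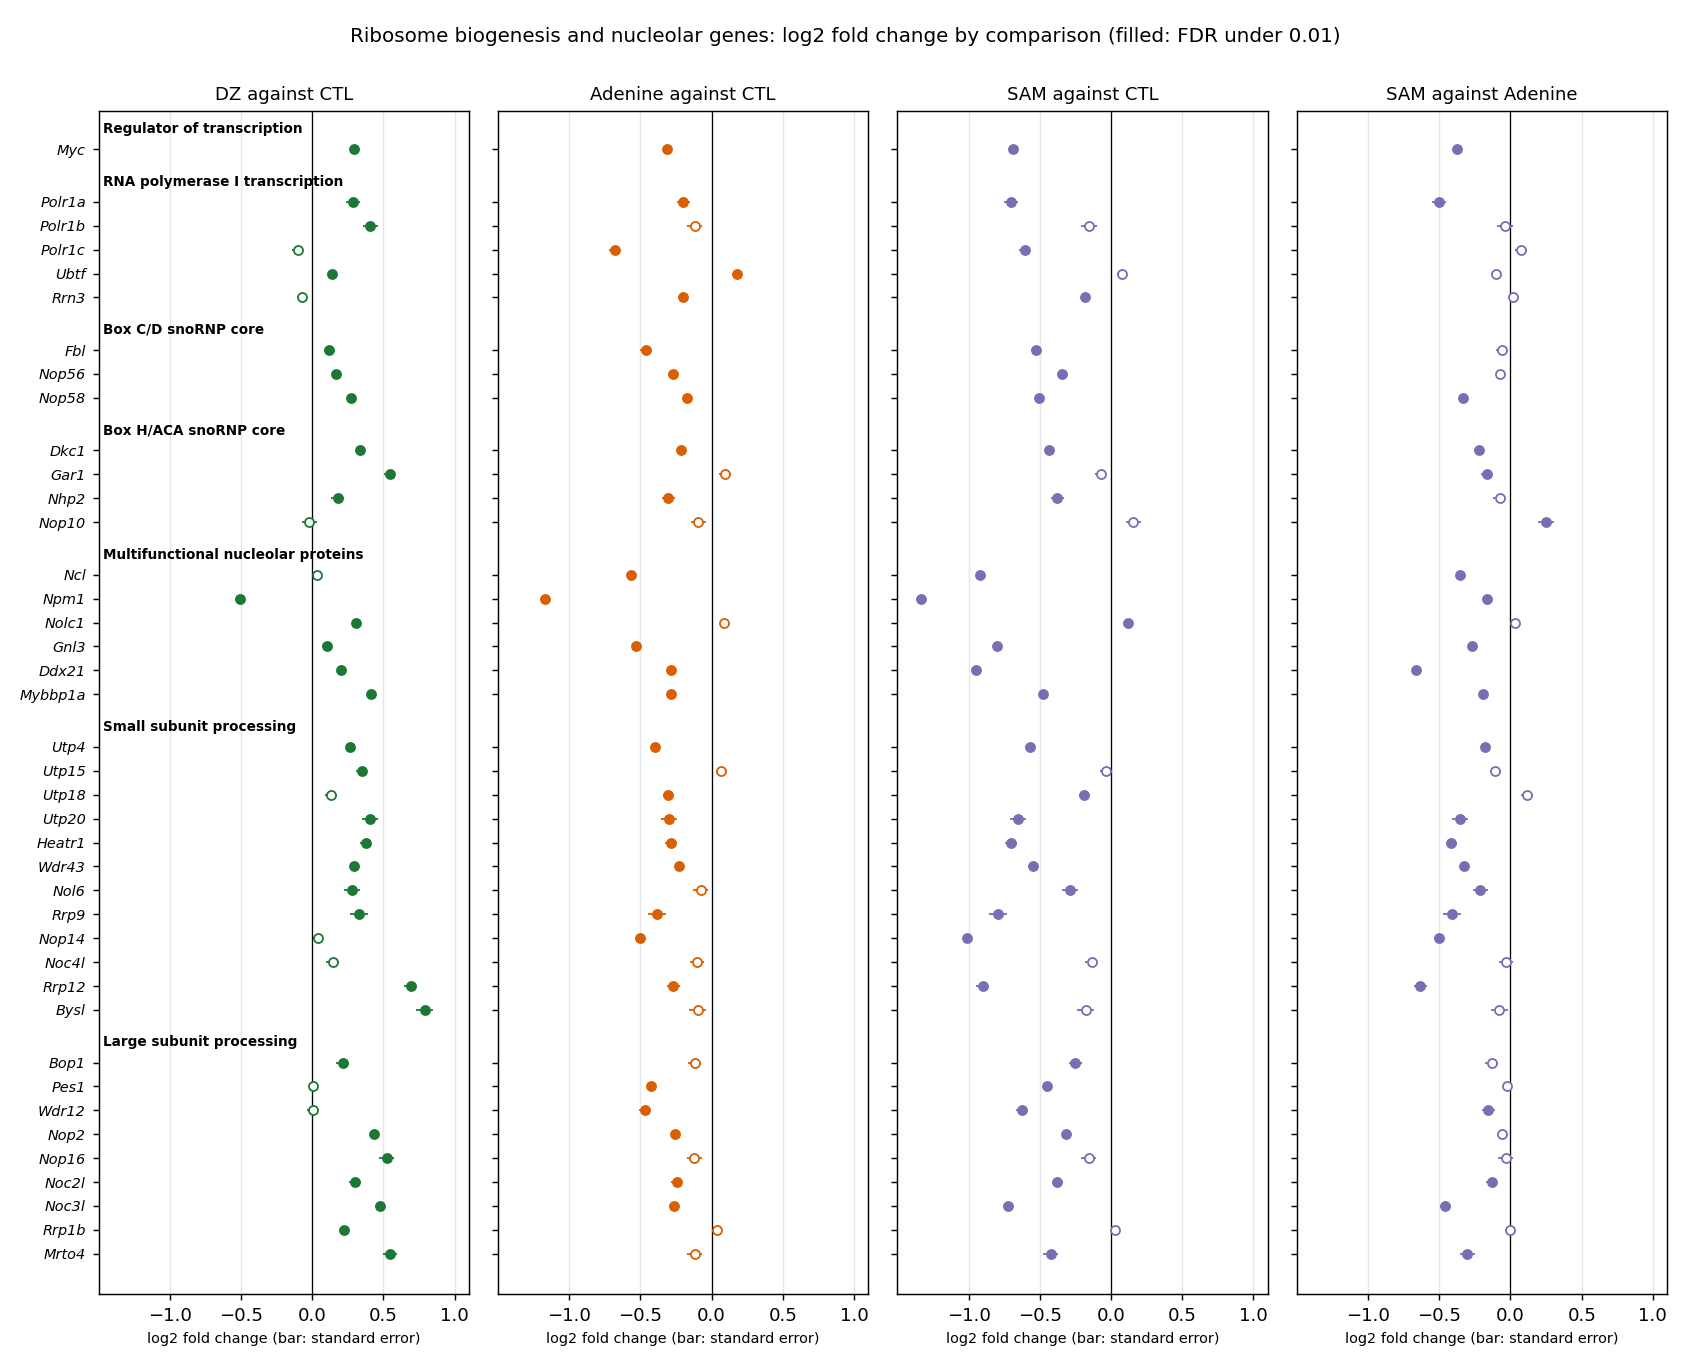
log2 fold change (x axis, bars are standard errors of limma) of each of the 40 genes, grouped by role (rows), in the 4 comparisons (panels), with filled points for genes called at an FDR under 0.01. Filled points lie mostly to the right of 0 for DZ (30 of 40) and to the left for adenine (27) and SAM (30), and in the last panel 22 lie to the left.

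Adenine and SAM were given at the same concentration and for the same time, and were compared directly, while DZ was given at another concentration and is only set beside them. SAM was below adenine in 35 of the 40 point estimates, with a median of -0.16 against 0.00 over all genes. Of the 40 genes tested 22 were lower under SAM than under adenine (22.0% of all genes were called lower and 20.8% higher), only Nop10 was higher, and 17 were not called. The 3 SAM dishes all lay below the 3 adenine dishes in 26 genes, as in 30.7% of all genes. The largest differences were those of Ddx21 (log2 fold change -0.66, standard error 0.03, adjusted p = 9.08e-11 in limma), Rrp12 (-0.63, adjusted p = 2.06e-08), and Nop14 (-0.50, adjusted p = 8.69e-09), whose values in each dish are given above. Polr1a followed with -0.50, Noc3l with -0.46, and Myc with -0.38.

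Step by step, 19 of the 40 genes fell from CTL to adenine and again from adenine to SAM, an order called in 8.95% of all genes. They include Myc, Ncl, Npm1, Gnl3, Ddx21, Dkc1, and Nop58. In 17 genes adenine and SAM were not told apart, and the 95% intervals of their differences lay between -0.23 (Bop1) and 0.20 (Utp18), on the log2 scale. Rrp1b had a difference of 0.00 (-0.075 to 0.067), Pes1 -0.02 (-0.091 to 0.042), and Rrn3 0.02 (-0.051 to 0.093). Nop10 was higher under SAM by 18.9% (adjusted p = 0.00111 in limma), with the dishes reading 5.29, 5.17, and 5.21 log2 CPM in adenine and 5.40, 5.42, and 5.59 in SAM. The calls of Noc2l (-0.14 to -0.12), Wdr12 (-0.19 to -0.12), Gar1 (-0.19 to -0.15), and Nol6 (-0.26 to -0.14) were each lost in at least 3 of the 6 fits that left out 1 dish, and those of Gar1, Noc2l, Nol6, Npm1, and Wdr12 with plain read totals, which left 17 genes lower and 2 higher. With that scaling 2081 of all 12591 genes were called lower and 3573 higher. Leaving out SAM replicate 3 called Bop1 lower (-0.18), leaving out SAM replicate 1 called Ubtf lower (-0.13), and leaving out SAM replicate 2 called Utp18 higher (0.16).

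The rest of the pathway was read from 6 lists of other ribosome biogenesis proteins, in which 136 of 137 listed genes were in the table. Of these 83 rose and 7 fell under DZ, 16 rose and 68 fell under adenine, and 15 rose and 82 fell under SAM. Their median log2 fold changes were 0.19, -0.14, and -0.24. With plain read totals the medians were 0.22, -0.08, and -0.12, and 24 rose and 49 fell under adenine and 35 rose and 63 fell under SAM, and with median centring 7 rose and 80 fell under adenine. Of all 12591 genes, plain read totals called 4572 higher and 3264 lower under adenine, and 5462 and 3462 under SAM. Median centring called 3356 higher and 4456 lower under adenine. The 40 other small subunit factors and the 46 other large subunit factors held most of the lower genes, with 23 and 29 under adenine and 30 and 34 under SAM. Imp4, a protein of the U3 snoRNP, and Wdr46 of the small subunit processome had log2 fold changes under SAM of -1.17 and -1.17, and Mdn1, the AAA ATPase that strips assembly factors from the large subunit precursor, of -1.16. Nsa2, a large subunit factor, fell in all 3 treatments (-0.50 with DZ, -1.01 with adenine, and -1.09 with SAM).

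The other lists were mixed under adenine and SAM, as were all genes tested, and their balance depended on the scaling. Among all genes, 22.6% rose and 23.4% fell under DZ, 30.6% and 31.0% under adenine, and 33.7% and 35.7% under SAM. Whether these lists differed from all genes was not tested. Of 16 other genes of RNA polymerase I and rDNA transcription, 9 rose and 3 fell under DZ, 5 rose and 4 fell under adenine, and 5 rose and 5 fell under SAM. Polr1g, a polymerase I subunit, rose under DZ and adenine and fell under SAM (0.81 with DZ, 0.21 with adenine, and -0.26 with SAM), whereas Taf1d, a subunit of the selectivity factor of polymerase I whose gene also hosts snoRNAs, fell in all 3 treatments (-0.30 with DZ, -1.07 with adenine, and -0.91 with SAM). Of 10 snoRNP assembly factors 6 rose under DZ, and under SAM Znhit3 rose (0.96) while 4 fell, among them Naf1 (-0.33). The 11 genes listed for the modification of rRNA bases had 6 higher and none lower under DZ, and 5 lower and 1 higher under both adenine and SAM. Among them Nat10, the acetyltransferase of cytidine, and its adaptor Thumpd1 fell under adenine (-0.36 and -0.37) and SAM (-0.75 and -0.57). The RNA exosome, which trims precursors, had 8 of the 13 genes in the table higher under DZ, and 5 higher and 4 lower under both adenine and SAM, with Exosc8 at 1.09 and Exosc5 at -0.80 under SAM. With plain read totals the calls under SAM were 8 higher and 3 lower for the polymerase I genes, 5 and 3 for the snoRNP assembly factors, 3 and 4 for the base modification genes, and 7 and 3 for the exosome. Of all 12591 genes that scaling called 5462 higher and 3462 lower under SAM.

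The partners and other targets of MYC had calls in both directions, as had all genes tested. Among all genes, 22.6% rose and 23.4% fell under DZ, 30.6% and 31.0% under adenine, and 33.7% and 35.7% under SAM. Whether the MYC lists differed from all genes was not tested. Of 10 genes of the MYC network in the table, 1 rose and 3 fell under DZ, 2 rose and 4 fell under adenine, and 3 rose and 5 fell under SAM. Mnt, a repressor that competes for MAX, fell in all 3 treatments (-0.20 with DZ, -0.37 with adenine, and -0.63 with SAM), and Mycl, a relative of Myc, fell under adenine (-0.65) and SAM (-0.76). Of 15 MYC target genes outside the nucleolus, 8 rose and 3 fell under DZ, 7 rose and 5 fell under adenine, and 3 rose and 6 fell under SAM. They ranged from Tfrc, the transferrin receptor, at 0.81 with DZ, 1.78 with adenine, and 1.59 with SAM, to C1qbp, a mitochondrial protein, at 0.16 with DZ, -0.80 with adenine, and -1.01 with SAM.

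Genes for the proteins of the ribosome itself were mostly lower than CTL in all 3 treatments, DZ included. Of 77 cytosolic ribosomal protein genes none rose in any treatment, and 72 fell under DZ, 77 under adenine, and 76 under SAM, with median log2 fold changes of -0.55, -1.11, and -0.93. Against adenine, 43 of them were higher and 2 lower under SAM, while of the 40 assembly genes 1 was higher and 22 lower. In this comparison 14 of the 136 other biogenesis genes were higher and 48 lower. Of the 15 MYC targets outside the nucleolus 1 was higher and 10 lower. Among all genes 20.8% were higher and 22.0% lower. The snoRNA host genes, whose introns carry small nucleolar RNAs, were also mostly lower, with 16 of the 19 in the table lower under DZ and 18 of 19 lower under both adenine and SAM. Among them Gas5 and Snhg5 fell under DZ (-0.87 and -0.84), adenine (-1.72 and -1.61), and SAM (-2.09 and -2.56). Of the 40 genes, Npm1 alone had this combination of calls. The 78 mitochondrial ribosomal protein genes had 42 higher and 1 lower under DZ, 14 higher and 35 lower under adenine, and 20 higher and 28 lower under SAM, where plain read totals turned the balance to 27 higher and 17 lower. Under SAM the mitochondrial list was thus 25.6% higher and 35.9% lower, where 33.7% of all genes were higher and 35.7% lower. Plain read totals called 5462 of all 12591 genes higher and 3462 lower under SAM. No test compared these lists with each other.

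**Figure D4:**
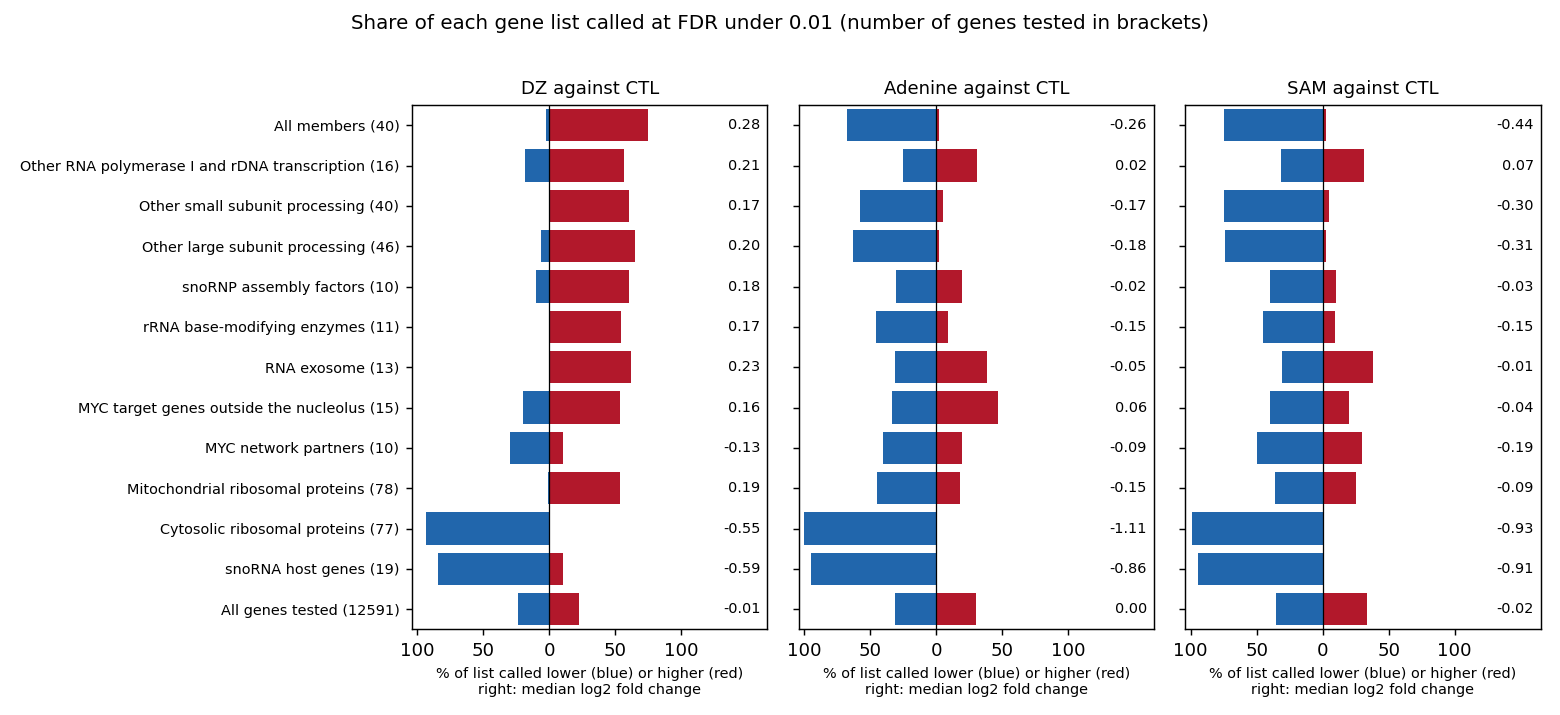
Share of each gene list (rows, number of genes in brackets) called lower (blue, to the left) or higher (red, to the right) at an FDR under 0.01, in percent on the x axis, with the median log2 fold change printed at the right of each panel. The 40 genes are 75.0% higher under DZ, 67.5% lower under adenine, and 75.0% lower under SAM, whereas cytosolic ribosomal proteins are at least 93.5% lower in all 3 treatments.

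Reads of a gene can be shared with its pseudogenes, which were taken here from every annotated pseudogene class. Of the 40 genes, 12 had at least 1 that matched their transcript over 200 bases or more at 90% identity or more. The 28 genes without any had medians of 0.29 under DZ, -0.21 under adenine, and -0.35 under SAM, with 22 higher and none lower under DZ and 19 lower and 1 higher under SAM. Npm1 had 8 such pseudogenes, of which the 5 in the table had log2 fold changes between -0.66 and -0.51 under DZ and between -1.74 and -1.23 under SAM, and the pseudogene Mrto4-ps1 had 0.55 under DZ and -0.05 under SAM, where Mrto4 itself had -0.42. How reads were shared between gene and copy is uncertain for these 12 genes, Fbl, Nop56, Dkc1, Gar1, Nhp2, Ncl, Npm1, Ddx21, Mybbp1a, Pes1, Wdr12, and Mrto4. Exons of 15 of the genes overlap a tested gene on the opposite strand, in 20 pairs, and the libraries were stranded, but the strand setting of the counting was not given in the sources used here. Both genes of a pair were called in the same direction in 2 pairs under DZ, 4 under adenine, and 7 under SAM, and in opposite directions in 7, 6, and 4. The longest overlap was that of Dkc1 with Mpp1 (1246 exonic bases), where Mpp1 had log2 fold changes of -0.70, -0.47, and -0.14. Utp4 shared 456 bases with Chtf8, which rose in all 3 treatments (0.34, 0.28, and 0.45), and Bysl shared 369 with Ccnd3, which had -0.16, 0.49, and 0.65. The part of shared reads in these values was not tested.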

How the data were processed

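RNA was measured by poly-A stranded sequencing in 12 libraries, 3 per group. Per the labels and methods, the authors trimmed reads with Trimmomatic, aligned them to GRCm39 with HISAT2, counted them with StringTie on GENCODE vM27, and normalized with edgeR, keeping genes that reached 1 CPM in every sample. The deposited values are log2 CPM with a prior count of 2. Whole reads were recovered from them, 100% of values falling within 0.01 of a whole number. Gene spans and lengths came from GENCODE vM39 (12575 of 12591 identifiers matched). The 40 genes and all lists were chosen with earlier results of these data known.

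Here limma (version 3.58.1, R 4.3.3) was fitted to the deposited log2 values with a variance trend, a mean per group and all 12 libraries, with Benjamini-Hochberg adjustment over 12591 genes and an FDR under 0.01 called changed. The fit was tested first on simulated data, in which 200 genes per comparison were changed by more than the medians of the 40 genes. Far more genes were called in the real data, so that test does not bear on small changes amid wide ones. A direct permutation of 3 against 3 libraries cannot go below p = 0.1. All 40 genes are named. Values in every library are given for Myc, for the 3 highest and 3 lowest called members of each comparison with CTL, for the 3 largest differences between SAM and adenine, and for the member of each role with the largest change under SAM, and Nop10 was added where a result turned on it. Each other list is shown by the 2 genes with the largest called change, and Mpp1, Chtf8, Ccnd3, and Mrto4-ps1 were chosen after their values were seen. Cytosolic and mitochondrial ribosomal proteins were taken by symbol. Pseudogenes were searched with BLAST (2.17.0). Alternatives were scaling, pseudocount, filter, threshold, variance model, voom on the recovered reads, a replicate block, and leaving out each dish. Protein sequences were not analysed here.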

Additional observations from a re-analysis of the deposited data

How the results depend on the processing

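No called change of the 40 genes turned its direction under any alternative run, and of the alternatives for single named genes 794 kept their call and 34 lost it. An added minimum absolute log2 fold change of 0.5 left 6 of the 40 genes called under DZ, 5 under adenine, 18 under SAM, and 4 between SAM and adenine, and 6, 13, 30, and 3 of the other biogenesis genes. Between SAM and adenine this cut left 509 of all 12591 genes higher and 706 lower. The counts over all genes for the comparisons with CTL are given above. The median of the 40 genes moved under DZ to 0.26 with median centring, 0.30 with plain read totals, and 0.29 without the genes that have pseudogenes. Under adenine it moved to -0.31, -0.20, and -0.21 with these same alternatives, and to -0.21 with quantile normalization. Under SAM it moved to -0.48, -0.32, and -0.35, and to -0.41 with quantile normalization. Between SAM and adenine it moved to -0.10 with plain read totals, -0.13 with quantile normalization, and -0.13 without the genes that have pseudogenes. Leaving out 1 dish at a time gave medians of 0.25 to 0.28 under DZ, -0.27 to -0.24 under adenine, -0.46 to -0.44 under SAM, and -0.16 to -0.15 between SAM and adenine, with 28 to 29, 28 to 30, 31 to 34, and 19 to 23 genes called. The deviations of same-numbered dishes from their group means correlated between -0.14 and 0.18. The labels do not say whether such dishes were handled together, and these correlations cannot settle it. With the replicate number as a block 31, 28, 31, and 21 of the 40 genes were called. The cause of these differences was not tested. The count test of edgeR was not run, and voom on the recovered reads stood in for it. With 3 dishes in a group, log2 changes of about 0.1 were at the edge of what the fit could call for some genes (Fbl, Gnl3, and Nolc1 above). In other genes larger changes were not called. Under SAM these included Bysl (-0.18), Nop10 (0.16), Polr1b (-0.16), and Nop16 (-0.16), and under DZ Noc4l (0.14).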

Other observations

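Outside the 40 genes, those whose values across the 12 libraries were most like the median of the group were Gpr176 (Pearson r = 0.997), Cln8 (0.996), Tomm70a (0.995), Mcfd2 (0.995), and Cdv3 (0.995), a description over libraries that share their groups. Within the group the values of Nop10 (-0.39), Ubtf (-0.0006), and Nolc1 (0.52) were least like that median. Per kilobase of annotated transcript the levels of the 40 genes in CTL ran from 1.95 log2 CPM per kb for Wdr12, whose annotated transcripts are long, and 3.14 for Polr1b up to 9.69 for Npm1.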
